A study of Rattus norvegicus with 16 samples.

Results

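The NMDA receptor subunits are described here across the hippocampal CA1 field and the white blood cells (WBC) of rats with and without traumatic brain injury. The 6 genes, Grin1, Grin2a, Grin2b, Grin2c, Grin2d and Grin3a, were taken by symbol from 16713 named symbols in the CA1 table and 16702 in the WBC table. A gene listed in several rows was represented by its row of highest mean level. All animals were male Sprague-Dawley rats of 200 to 240 g at the start. The injured animals received a fluid percussion injury (TBI) and their controls sham surgery. Both were tested for learning and killed 1 week after surgery. The 4 groups (CA1 TBI, CA1 sham, WBC TBI and WBC sham) hold 4 libraries each, 16 in all. Nothing in the sources used here says that the same rat gave both tissues or that equal numbers pair a TBI with a sham rat, so p-values reflect the spread among these libraries alone, which may be technical.

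NMDA receptors are cation channels of the glutamate receptor family. Their usual form, with GluN2 subunits, opens only when glutamate and a co-agonist, glycine or D-serine, are bound and the membrane is depolarized. Depolarization removes a magnesium ion from the pore. Every receptor contains GluN1, the product of Grin1, combined with GluN2 subunits (Grin2a to Grin2d), which bind glutamate and set the kinetics, or with GluN3 subunits such as that of Grin3a, which lower calcium permeability. In CA1 pyramidal neurons the calcium that enters through them triggers the lasting changes in synaptic strength studied as a basis of learning, and excess entry after trauma is a textbook route of excitotoxic injury.

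Upstream sequences were matched for 4 of the 6 genes (Grin1, Grin2c, Grin2d and Grin3a) in the RefSeq promoter table of build GRCr8. Grin1 and Grin2c are shown, the subunit with the highest level in CA1 and the subunit whose injured and sham libraries did not overlap there. The windows are the 250 bases before the annotated start, chr3:28528755-28529004 for Grin1 and chr10:101005139-101005388 for Grin2c, both on the minus strand and written 5′ to 3′ along the gene, with CpG dinucleotides in capitals.
Grin1: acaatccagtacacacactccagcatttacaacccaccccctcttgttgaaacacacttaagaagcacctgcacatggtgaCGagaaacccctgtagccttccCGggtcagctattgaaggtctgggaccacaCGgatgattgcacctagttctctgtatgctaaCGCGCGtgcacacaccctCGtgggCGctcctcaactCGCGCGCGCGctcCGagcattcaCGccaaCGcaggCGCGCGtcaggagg
Grin2c: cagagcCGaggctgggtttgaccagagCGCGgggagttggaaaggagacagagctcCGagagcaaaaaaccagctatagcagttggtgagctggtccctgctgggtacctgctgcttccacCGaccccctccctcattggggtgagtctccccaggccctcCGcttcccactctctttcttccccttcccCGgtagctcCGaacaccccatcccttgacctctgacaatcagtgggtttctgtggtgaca
Grin1 has 19 CpG in this window, 17 of them in the 125 bases nearest the start, and more than 81.6% of all promoter windows of this length. Grin2c has 8, of which 3 lie in the nearest 125 bases. The median over all windows was 5, and Grin2d had 9 and Grin3a 16. None of the 4 windows holds GGGCGG (a GC box) or TTCAGCACC (the left part of an RE1 element) on either strand, which 30.5% and 0.305% of all windows hold. This says only that these letters are not in these windows.

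The values are FPKM, fragments scaled by transcript length and by library size, so levels of different genes can be set side by side within a table. The number of fragments behind a library is unknown, which leaves the precision of single values and the detection limit unknown. FPKM summed to 1726840 to 3520670 per CA1 library and to 482286 to 832725 per WBC library, with the 10 highest rows holding 69.0 to 82.8% and 18.6 to 35.8% of the sums. TBI 1 and sham 1 stood apart from the other 6 CA1 libraries on the first principal component (28.4 and 27.4, against -19.4 to -1.77), and TBI 1 lay at the end of that component in WBC (57.0, the others -32.9 to 19.1). The tissue labels fit their markers: the 7 pyramidal neuron markers summed to 4479 to 6469 FPKM in the CA1 libraries and 7.03 to 18.0 in WBC, and the 9 leukocyte markers to 38.6 to 51.3 in CA1 and 1877 to 3138 in WBC. The list called pyramidal here includes Snap25 and Rbfox3, which mark neurons in general. Snap25 alone ran from 2186 to 3317 FPKM in CA1, so the sum is not particular to pyramidal cells. The WBC libraries also held erythroid markers, with sums of 4100 to 15702 FPKM, and platelet markers, with sums of 1808 to 7747. In CA1 the choroid plexus markers summed to 18.4 FPKM in sham 1 and to 2735 in TBI 1, the lowest and highest of the CA1 libraries. In both tissues the libraries are mixtures of cells, where fewer cells of a type and less RNA per cell cannot be told apart.

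In CA1, Grin1 was by far the most abundant subunit, at 118 ± 7.55 FPKM (SD, n = 8 libraries). It made up 60.9 to 68.0% of the summed FPKM of the 6 subunits, 4.65 times the mean of the next, Grin2a, and lay above it in 8 of 8 libraries. The GluN2 genes Grin2a (25.4 ± 8.14), Grin2b (19.2 ± 2.08) and Grin2c (16.4 ± 1.64) formed a middle tier, in which the Grin2a row of highest mean exceeded Grin2b in 6 of 8 libraries and Grin2b exceeded Grin2c in 7 of 8. Grin3a (3.95 ± 0.882) and Grin2d (3.14 ± 0.452) were lowest, with Grin3a above Grin2d in 6 of 8, while Grin2c exceeded Grin3a in 8 of 8. The coefficient of variation was 32.0% for this Grin2a row, 22.3% for Grin3a and 6.39% for Grin1. Grin2a was listed in 2 rows in CA1, described further on, and with both summed (37.7 ± 7.71 FPKM) its coefficient of variation was 20.5%, it exceeded Grin2b in 8 of 8 libraries, and Grin1 was 3.14 times its mean and 56.5 to 62.5% of the sum.

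**Figure D1:**
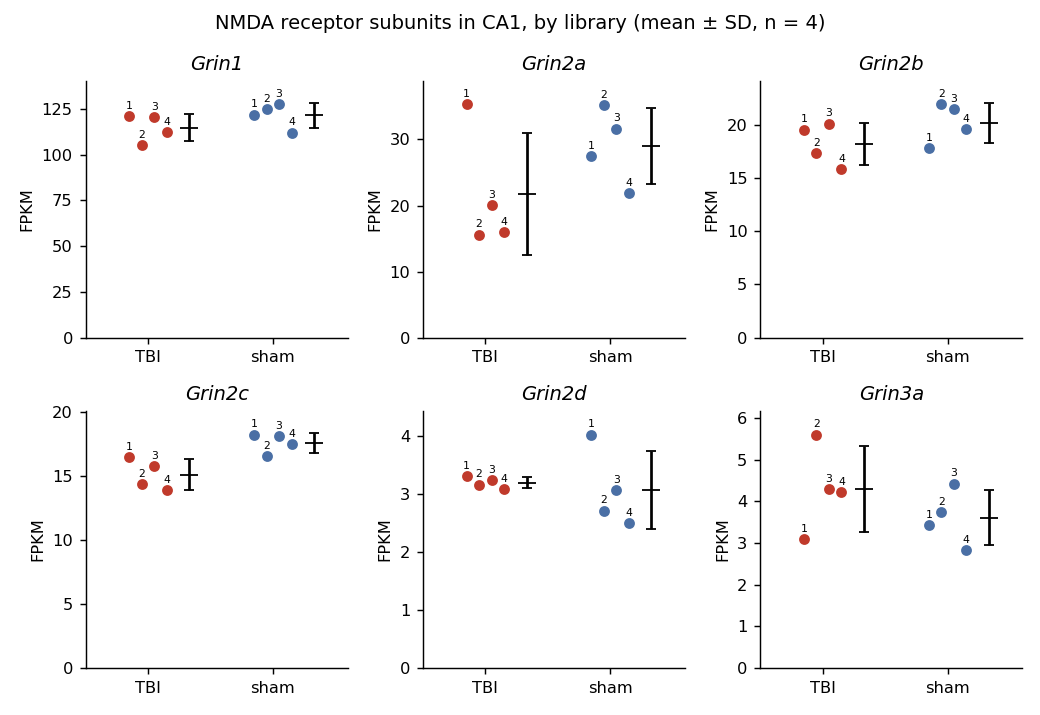
FPKM (vertical axes, each from 0) of the 6 NMDA receptor subunits in CA1, TBI left and sham right; points are single libraries with their numbers, bars the mean ± SD of 4. The groups overlap in every gene but Grin2c, whose 4 TBI libraries (13.9 to 16.5) lie below the 4 sham libraries (16.6 to 18.3).

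The comparison of injured with sham CA1 asks whether the receptor's subunit transcripts differed 1 week after injury. None of the 6 subunits passed limma across 14637 rows (adjusted p = 0.891 for Grin1, Grin2a, Grin2b, Grin2c and Grin3a, and 0.940 for Grin2d), in a comparison where 0.00683% of all rows, a single unnamed locus, passed. At an unadjusted limma p under 0.05 there was 1 of the 6, Grin2c, against 5.14% of all rows. The log2 difference was below 0 in 4 of the 6 subunits, against 53.3% of all rows, and no alternative setting or left-out library gave any of them an adjusted p below 0.260 in limma.

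Grin1, which encodes the obligatory GluN1 subunit, stood at 120.9, 105, 120.5 and 112 FPKM in TBI 1 to 4, against 122, 125, 127 and 112 FPKM in sham 1 to 4. The ranges overlap, and only TBI 2 lay clearly below all sham libraries. On the log2 scale of FPKM + 0.5 used for all tests, the difference, TBI minus sham, was -0.08 ± 0.07 (SE), and it was -0.04 without TBI 2.

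Grin2c encodes a GluN2 subunit best known from cerebellar granule cells, and in rodents its transcript is also found in astrocytes. It had 16.5, 14.4, 15.8 and 13.9 FPKM in TBI 1 to 4, against 18.3, 16.6, 18.2 and 17.5 FPKM in sham 1 to 4. Every TBI library lay below every sham library, by a narrow margin between TBI 1 and sham 2, in a comparison where 2.88% of all rows had groups that did not overlap (1.6% lower and 1.28% higher in TBI). Its mean was 15.1 ± 1.20 FPKM in TBI and 17.6 ± 0.778 FPKM in sham (SD, n = 4 each). The log2 difference of -0.22 ± 0.07 (SE) gave an unadjusted limma p of 0.0116 and did not pass after adjustment (adjusted p = 0.891, and 0.277 to 1 over the alternatives). Beside it, the summed FPKM of 6 astrocyte markers ran from 1304 to 1425 in TBI and from 1322 to 1761 in sham libraries. That of 7 pyramidal markers ran from 4772 to 5232 in TBI and from 4479 to 6469 in sham. Log2 differences were below 0 in 6 of 6 and 7 of 7 of them, against 53.3% of all rows, and none passed. They were also below 0 in 5 of 5 endothelial markers, 3 of which did not overlap, but in only 2 of 5 oligodendrocyte and 1 of 6 choroid plexus markers. The part of any of these cell types in the Grin2c values was not tested.

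Grin2b encodes the slowly deactivating GluN2 subunit that binds the kinase CaMKII and predominates early in development. It had 19.5, 17.3, 20.1 and 15.8 FPKM in TBI 1 to 4, against 17.8, 21.9, 21.4 and 19.6 FPKM in sham 1 to 4. Only TBI 2 and TBI 4 lay below the lowest sham library, and the log2 difference was -0.15 ± 0.10 (SE), or -0.08 without TBI 4.

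Grin2d encodes a GluN2 subunit with very slow kinetics that in the rodent hippocampus is found mainly in interneurons. It had 3.31, 3.16, 3.24 and 3.08 FPKM in TBI 1 to 4, against 4.02, 2.71, 3.06 and 2.49 FPKM in sham 1 to 4. The TBI libraries lay close together inside the sham range, which sham 1 and sham 4 spanned. The log2 difference was 0.07 ± 0.13 (SE), and it was -0.01 without sham 4, 0.02 without sham 2 and 0.19 without sham 1. The summed FPKM of 7 interneuron markers ran from 471 to 526 in TBI and from 388 to 581 in sham. It was highest in sham 1, as Grin2d was, but lowest in sham 2, whereas Grin2d was lowest in sham 4. Sham 1 was also the highest library for 5 of 5 endothelial and 3 of 5 oligodendrocyte markers. The part of these cell types in the Grin2d values was not tested.

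Grin3a, which encodes the GluN3 subunit of immature synapses, had 3.09, 5.60, 4.29 and 4.22 FPKM in TBI 1 to 4, against 3.43, 3.74, 4.42 and 2.83 FPKM in sham 1 to 4. TBI 2 was the highest library and TBI 1 the second lowest, so the groups overlap. The log2 difference was 0.21 ± 0.17 (SE), and it was 0.09 without TBI 2, 0.12 without sham 4 and 0.34 without TBI 1.

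Grin2a, which encodes the GluN2 subunit that prevails at adult forebrain synapses, appeared in CA1 as the 2 rows already named. The row with the higher mean, which stood for the gene above, had 35.3, 15.6, 20.1 and 16.0 FPKM in TBI 1 to 4, against 27.5, 35.2, 31.6 and 21.9 FPKM in sham 1 to 4. TBI 2, 3 and 4 lay below every sham library, whereas TBI 1 was the highest of all 8. The log2 difference of -0.47 ± 0.26 (SE) was -0.73 without TBI 1 (limma adjusted p = 0.563) and -0.75 without both TBI 1 and sham 1 (limma adjusted p = 0.260), the widest spread between settings among the 6 subunits.

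The other Grin2a row had 1.51, 13.5, 18.5 and 14.5 FPKM in TBI 1 to 4, against 2.65, 15.8, 12.7 and 19.0 FPKM in sham 1 to 4. It was low in library 1 of both groups, the same 2 libraries that stood apart on the first principal component, and the lowest of the other 6 was 4.80 times the higher of these. A gap at least as wide, in the same direction, was found in 30 of 14637 tested rows (0.205%). The first row accordingly held 95.9% of the sum of both in TBI 1 and 91.2% in sham 1, but 52.0 to 53.5% in TBI 2 to 4 and 53.6 to 71.3% in sham 2 to 4. Summed, the rows gave 36.8, 29.1, 38.6 and 30.5 FPKM in TBI 1 to 4, against 30.1, 51.0, 44.4 and 40.9 FPKM in sham 1 to 4. TBI 1 is then no longer the highest library and sham 1 is the second lowest, and the log2 difference was -0.28 ± 0.16 (SE, limma adjusted p = 0.891). In table order the first row stands among genes that RefSeq GRCr8 places on the plus strand (10 of 10 neighbours with a strand), and the other among genes mostly on the minus strand (7 of 10). The library protocol in the labels describes no step that marks strand, so fragments from a gene and from a transcript opposite to it cannot be told apart. FPKM of rows of different length add only approximately. The WBC table had 1 Grin2a row.

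**Figure D2:**
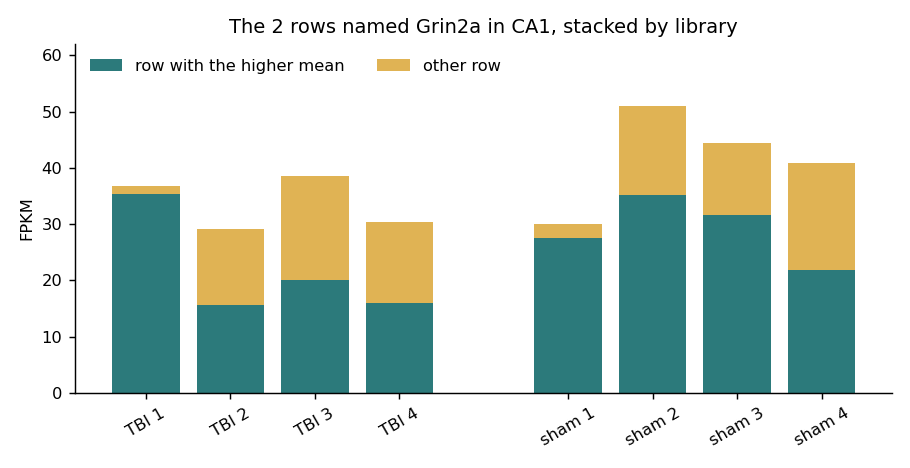
FPKM (vertical axis, from 0) of the 2 rows named Grin2a in CA1, stacked for each library, TBI left and sham right. The upper part nearly vanishes in TBI 1 (1.51) and sham 1 (2.65) and lies between 12.7 and 19.0 in the other 6 libraries.

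The proportions of subunits within a library do not depend on how that library was scaled. The ratio of Grin2a to Grin2b, which rises as synapses mature, was 1.81, 0.90, 0.998 and 1.01 in TBI 1 to 4, against 1.54, 1.61, 1.48 and 1.12 in sham 1 to 4. In TBI 2, 3 and 4 it lay below every sham library, but in TBI 1 above all of them. The mean log2 ratio was 0.18 ± 0.46 in TBI and 0.51 ± 0.24 in sham (SD, n = 4 each), a difference of -0.33 (exact permutation test over 70 splits, 2-sided p = 0.314, adjusted p = 0.314 over 4 quantities, smallest possible p = 0.0286). With both Grin2a rows summed the difference was -0.13 (exact permutation p = 0.286), with 0.75 to 0.95 in the TBI libraries and 0.76 to 1.22 in the sham libraries on the log2 scale.

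The summed FPKM of Grin2a to Grin2d per FPKM of Grin1 was 0.617, 0.48, 0.491 and 0.434 in TBI 1 to 4, against 0.554, 0.612, 0.583 and 0.549 in sham 1 to 4. Again TBI 2, 3 and 4 lay below the sham range and TBI 1 above it. With both Grin2a rows summed this order was not kept: the log2 ratio was -0.67, -0.71, -0.63 and -0.83 in TBI 1 to 4, against -0.80 to -0.44 in sham libraries, so that only TBI 4 lay below the sham range. For the single row the log2 difference was -0.20 (exact permutation p = 0.143, adjusted p = 0.305), and for the sum of both -0.15 (exact permutation p = 0.143, adjusted p = 0.286). Grin3a per Grin1 ran from 0.0256 to 0.0533 in TBI and from 0.0253 to 0.0347 in sham libraries, with a log2 difference of 0.32 (exact permutation p = 0.229, adjusted p = 0.305). All 6 subunits together summed to 199, 161, 184 and 165 FPKM in TBI 1 to 4, against 193, 205, 206 and 176 FPKM in sham 1 to 4, a log2 difference of -0.14 (exact permutation p = 0.20, adjusted p = 0.305). None of the 4 quantities passed. Single TBI libraries moved these values in both directions. Without TBI 1 the differences of the Grin2a to Grin2b, Grin2 to Grin1 and Grin3a to Grin1 ratios and of the sum became -0.55, -0.30, 0.50 and -0.20, with adjusted exact permutation p of 0.0762 for the 3 ratios and 0.0857 for the sum. With both TBI 1 and sham 1 left out they were -0.51, -0.31, 0.48 and -0.20 (adjusted exact permutation p = 0.133 for the 3 ratios and 0.20 for the sum). Without TBI 2 they were -0.22, -0.18, 0.14 and -0.10 (adjusted exact permutation p = 0.486 each), and without TBI 4 the Grin2 to Grin1 difference was -0.13 (adjusted exact permutation p = 0.371).

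**Figure D3:**
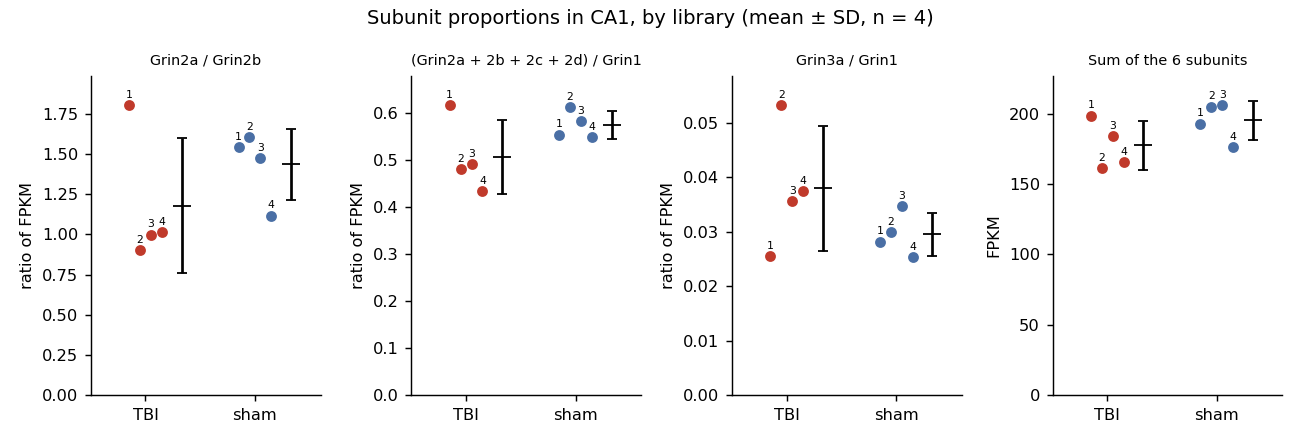
Ratios of FPKM within each CA1 library, and the summed FPKM of the 6 subunits (vertical axes, each from 0), TBI left and sham right; points are libraries with their numbers, bars the mean ± SD of 4. In the first panel TBI 2, 3 and 4 lie between 0.90 and 1.01, TBI 1 at 1.81 and the sham libraries between 1.12 and 1.61.

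The likeness of other genes to each subunit was measured over the 8 CA1 libraries as the root-mean-square difference of log2 values from each gene's own mean, among 10254 named genes, and is given as a description. The nearest to Grin1 were Ptdss1, a phosphatidylserine synthase (0.0275, against a root-mean-square deviation of 0.0874 in Grin1 itself), and Pragmin (0.0365). Nearest to Grin2a were Lrrc55, an auxiliary subunit of BK potassium channels (0.12, own deviation 0.441), and Exoc8, a subunit of the exocyst (0.161). Those nearest to Grin2b were Cnot1, the scaffold of the CCR4-NOT deadenylase (0.0278, own deviation 0.146), and the RNA-binding gene Cpeb4 (0.0332). Grin2c lay nearest to the neuronal splicing factor Rbfox3 (0.0436, own deviation 0.133), which averaged 92.7 FPKM in TBI and 105 in sham, and to Extl1 (0.0504). Nearness was found from these same 8 libraries, so the lower TBI mean of Rbfox3 is no separate result. Within the own deviation of Grin2c lay 1709 of the 10254 genes, and 938 (Grin1) to 4001 (Grin2a) within those of the subunits. For Grin2d they were the interleukin receptor gene Il17ra (0.0432, own deviation 0.165) and the neurexin Nrxn2 (0.0542), and for Grin3a Plcxd3 (0.0793, own deviation 0.262) and Ociad2 (0.108).

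Partner genes, which anchor the receptor, traffic it, supply its co-agonists or act downstream of its calcium, were a list of 62, of which 55 were tested in CA1. None passed in either direction (limma adjusted p = 0.891 to 0.996). At an unadjusted limma p under 0.05, 1 was higher and 4 lower, against 2.54% and 2.60% of all rows. The log2 difference was below 0 in 39 of the 55, against 53.3% of all rows, with a median of -0.09 against -0.01 over all rows, and it was below 0 in 11 of 12 scaffold and structural genes. In the same libraries it was also below 0 in 7 of 7 pyramidal neuron markers (-0.33 to -0.09), 6 of 6 astrocyte markers (-0.37 to -0.02) and 3 of 6 tested interneuron markers (-0.34 to 0.29), none of which passed. The difference was likewise below 0 in 5 of 5 endothelial (-0.47 to -0.16), 2 of 2 tested dentate granule, 4 of 5 CA3 and 3 of 5 microglial markers. It was below 0 in only 2 of 5 oligodendrocyte and 1 of 6 choroid plexus markers. The part of these cell types in the partner values was not tested.

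Homer1, a scaffold that links group I metabotropic receptors to the postsynaptic density, had 21.0, 22.6, 22.3 and 19.5 FPKM in TBI 1 to 4, against 24.4, 26.1, 24.9 and 23.7 FPKM in sham 1 to 4. Its groups did not overlap (log2 -0.21 ± 0.06 SE), nor did those of the neurofilament gene Nefl (370 to 489 FPKM in TBI and 493 to 506 in sham). These were 2 of the 55 partner genes, both lower in TBI, against 1.6% of all rows. Slc1a4, a neutral amino acid transporter that carries serine, averaged 14.4 ± 1.27 FPKM in TBI and 17.3 ± 1.64 in sham (SD, n = 4 each), with overlapping groups. Ppp3ca, a catalytic subunit of calcineurin, averaged 319 ± 40.5 FPKM in TBI and 392 ± 41.2 in sham, also with overlap. With log2 differences above 0, the dopamine receptor gene Drd1 averaged 2.82 ± 0.792 FPKM in TBI and 1.99 ± 0.184 in sham. The calcium/calmodulin kinase gene Camk2d averaged 24.0 ± 9.74 FPKM in TBI and 14.7 ± 4.56 in sham, and the scaffold Dlg1 26.4 ± 5.20 in TBI and 23.0 ± 2.22 in sham. In Drd1, Camk2d and Dlg1 the highest library was TBI 2, which was also highest for Grin3a. It was likewise highest for 2 of 5 microglial and 2 of 4 erythroid markers, and for 0 of 7 pyramidal neuron markers. These partner genes were picked for a small p with higher values in TBI, which by itself favours a TBI library as the highest. No relation to Grin3a was tested. The Grin3b row, for the other GluN3 subunit, stayed between 0.50 and 1.08 FPKM in the CA1 libraries and was not tested.

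**Figure D4:**
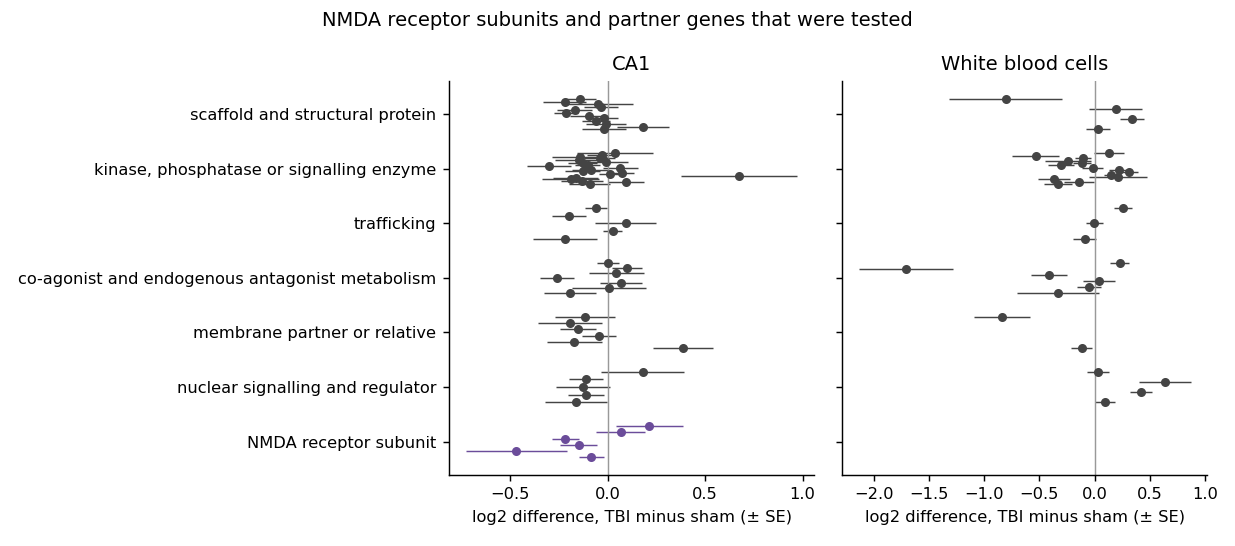
log2 difference, TBI minus sham, ± SE of every tested gene of the NMDA receptor partner list by role (grey) and of the 6 subunits (purple, bottom), in CA1 (left) and white blood cells (right, where no subunit was tested). In CA1, 39 of 55 partner genes lie left of 0; none passed in either tissue.

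In WBC the 6 subunits were at or near 0. No library held more than 0.546 FPKM of any of them, and their CA1 means were 61.6 times (Grin2d) to 1004 times (Grin2a) the WBC means, as levels set across tables that the authors scaled separately. These ratios are rough, because the WBC means lie near 0 (0.0253 FPKM for Grin2a, listed at 0 in 2 libraries). For Grin2a the CA1 mean is that of the row of highest mean. None of the 6 subunits reached the mean of 1 FPKM needed for testing. So none was tested against the 0% of 13413 WBC rows that passed (limma, where 20.3% had an unadjusted p under 0.05).

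Grin1 had 0.041, 0.156, 0.546 and 0.108 FPKM in WBC TBI 1 to 4, against 0.0934, 0, 0.0457 and 0.104 FPKM in WBC sham 1 to 4. TBI 3 stood highest, TBI 2 and TBI 4 also lay above every sham library, TBI 4 by a narrow margin, and TBI 1 lay within the sham range. Grin2c, with values above 0 in 8 of 8 libraries, ran from 0.0599 to 0.185 FPKM in TBI and from 0.0897 to 0.178 in sham. Grin2d likewise ran from 0.0378 to 0.0865 in TBI and from 0.0151 to 0.0631 in sham. Grin2a was listed at 0 in TBI 1 and sham 2 and reached 0.078 in TBI 3, Grin2b was listed at 0 in sham 4 and reached 0.0818 in sham 3, and Grin3a was listed at 0 in 6 of 8 libraries.

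WBC TBI 3 was the highest of the 8 WBC libraries for 3 of the 6 subunits (Grin1, Grin2a and Grin2c), for 6 of 7 pyramidal neuron markers and for 5 of 6 astrocyte markers. Of the other brain lists it was highest for 3 of 4 dentate granule, 3 of 7 interneuron, 3 of 5 oligodendrocyte and 0 of 5 CA3 markers. Among all 7350 WBC rows above 0 with a mean under 1 FPKM, where the 6 subunits lie, TBI 3 was highest in 18.6%. The summed FPKM of the astrocyte markers was 7.08 in TBI 3, 1.07 to 3.03 in the other TBI libraries and 1.61 to 2.99 in the sham libraries. That of the pyramidal markers was 18.0 in TBI 3, 8.75 to 10.4 in the other TBI libraries and 7.03 to 11.7 in the sham libraries. The interneuron sum was highest in sham 2 (139, against 117 in TBI 3), but Npy alone held 138 FPKM of it in sham 2 and 115 in TBI 3. In CA1 Npy did not exceed 0.505 FPKM, so the WBC sum reflects Npy and does not stand for brain interneurons. The oligodendrocyte sum was highest in TBI 4 (165, against 138 in TBI 3), and the CA3 sum in TBI 1 (2.07, against 1.30 in TBI 3). The vesicular glutamate transporter Slc17a7 stood at 3.12 FPKM in TBI 3, against 0.676 to 1.23 in the other 7, and the synaptic gene Snap25 at 5.02, against 0.643 to 2.31. The part of brain-derived RNA in the subunit values of TBI 3 was not tested.

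**Figure D5:**
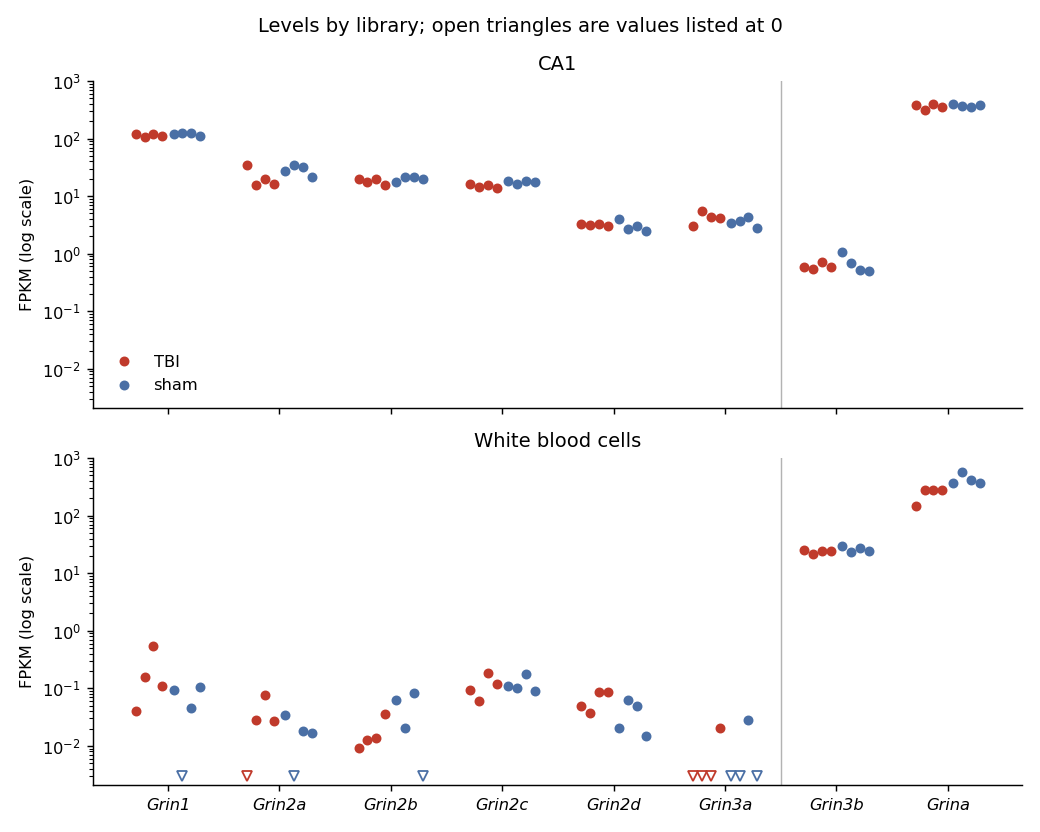
FPKM on a log scale (vertical axis) of the 6 subunits and, right of the line, Grin3b and Grina, in CA1 (top) and white blood cells (bottom), TBI red and sham blue, 1 point per library; open triangles mark values listed at 0 and are drawn at the foot of the axis. The 6 subunits lie at or above 2.49 in every CA1 library and at or below 0.546 in every WBC library, while Grin3b lies between 21.5 and 29.3 in WBC and at or below 1.08 in CA1.

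Grin3b and Grina, which carry the family's name, were found in WBC. Grin3b had 25.5, 21.5, 24.3 and 24.8 FPKM in WBC TBI 1 to 4, against 29.3, 23.3, 27.4 and 24.5 FPKM in WBC sham 1 to 4, and its groups overlap (limma adjusted p = 0.527). In RefSeq GRCr8 Grin3b overlaps its neighbour Tmem259 by 72 bases, and no row carried that symbol, so the fragments in the Grin3b row cannot be assigned to Grin3b with certainty. Grina, a membrane protein named for association with the receptor and no subunit of it, had 145, 280, 282 and 277 FPKM in WBC TBI 1 to 4, against 370, 572, 415 and 370 FPKM in WBC sham 1 to 4. Every WBC TBI library lay below every sham library (log2 -0.84 ± 0.25 SE, limma adjusted p = 0.146). In WBC 14.2% of all rows had groups that did not overlap, 8.63% lower and 5.61% higher in TBI. In the same libraries 4 erythroid markers summed to 4100 to 9903 FPKM in TBI and to 9886 to 15702 in sham, and 4 platelet markers to 1808 to 5265 FPKM in TBI and to 5637 to 7747 in sham. The groups did not overlap in 4 of 4 platelet and 3 of 4 erythroid markers, each with its TBI libraries lower, though none passed (limma adjusted p = 0.127 to 0.370). The part of either cell type in the Grina values was not tested. In CA1 Grina averaged 365 FPKM in TBI and 375 in sham.

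Of the 62 partner genes, 33 were tested in WBC and none passed (limma adjusted p = 0.127 to 0.986). At an unadjusted limma p under 0.05, 7 were higher and 7 lower, against 7.82% and 12.5% of all rows. The log2 difference was below 0 in 18 of the 33, against 50.4% of all rows. Groups did not overlap in 6 of the 33 that were higher and 5 that were lower in TBI, against 5.61% and 8.63% of all rows. The scaffolds Shank1, Shank2 and Shank3, the exchange factors Rasgrf1 and Rasgrf2 and the receptor Grm5 were among those below the mean needed for testing. Slc6a9, the glycine transporter GlyT1, which is also used by red cell precursors, had 4.43, 10.4, 11.5 and 2.36 FPKM in TBI 1 to 4, against 18.9, 24.0, 21.9 and 19.4 FPKM in sham 1 to 4. All TBI libraries lay below all sham libraries (log2 -1.71 ± 0.43 SE, limma adjusted p = 0.132), and the part of the erythroid and platelet sums given above was not tested here either. Ppp3ca averaged 18.4 ± 2.80 FPKM in TBI and 22.7 ± 1.06 in sham, without overlap. Crtc1, a calcium-responsive coactivator of CREB, averaged 6.38 ± 0.573 FPKM in TBI and 4.64 ± 0.419 in sham (log2 0.42 ± 0.10 SE, limma adjusted p = 0.127). The kinase gene Camk2g averaged 13.9 ± 0.907 FPKM in TBI and 11.1 ± 0.943 in sham, and the endosomal sorting gene Snx27 10.2 ± 0.547 in TBI and 8.49 ± 0.719 in sham, each without overlap and without passing.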

How the data were processed

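Poly-A RNA from about 1000 ng of total RNA was sequenced from CA1 and WBC. The deposited values are FPKM computed by the authors, 1 table per tissue, with a status for each value. Per the submitters' processing notes, TopHat, TopHat2, Bowtie, Bowtie2, Cufflinks and Cuffdiff were used with rn5; the sources used here name no version, annotation or library scaling. FPKM holds no counts, so depth is unknown.

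From these, log2(FPKM + 0.5) was tested within each tissue by limma 3.58.1 in R 4.3.3 (lmFit, eBayes with trend, 2-sided, Benjamini-Hochberg adjustment over all rows, threshold 0.05), for rows with a mean of at least 1 FPKM and status OK throughout: 14637 of 26031 CA1 and 13413 of 24779 WBC rows. Ratios were tested by exact permutation over libraries in Python 3.11.15 with numpy 2.4.6. On simulated CA1 values log2 changes of 0.3, 0.5, 1 and 2 were called in 16, 60, 80 and 96% of cases, and in 2, 20, 66 and 84% on simulated WBC values. Unchanged rows were called 5 times in CA1 and 2 times in WBC. The simulated rows varied independently, without differences shared by whole libraries, and more rows were changed than passed in the real data. These shares therefore do not give the power of the real comparisons.

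Named were all subunits and, per tissue, the 3 partner genes per direction with the smallest limma p; Nefl, Shank1, Shank2, Shank3, Rasgrf1, Rasgrf2, Grm5, Grin3b and, in CA1, Grina were named beyond this rule with their values in view. The 2 genes nearest to each subunit were named. Members and lists were chosen with earlier results of these data known. Alternatives were other pseudocounts, filters, scalings, limma settings, a replicate block and leaving out each library. Added after seeing the data were both Grin2a rows summed, the other Grin2a row, and CA1 without TBI 1 and sham 1. Positions come only from the RefSeq table (GRCr8), since the files give none.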

Additional observations from a re-analysis of the deposited data

Results flagged for a closer look

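The log2 ratio of Grin2a to Grin2b was 0.85 in CA1 TBI 1, far from the other 3 TBI libraries (-0.15 to 0.02). In WBC, Grin3a was listed at 0.0207 FPKM in TBI 4 and at 0.0279 FPKM in sham 3, each time with the other 3 libraries of the group at 0. Of 36 groups of 4 checked for a library far from the others, chance alone would mark about 1.8. With both Grin2a rows summed, TBI 1 lies within its group (0.91, against 0.75 to 0.95 in the other TBI libraries).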

How the results depend on the processing

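No subunit passed under any of 20 alternatives in CA1, and no partner gene under these or under 18 in WBC, the replicate block among them in both tissues. The WBC subunits were tested in 1 of the 18, without the filter on low values, so that the others say nothing about them. The sources do not say that equal numbers pair the samples. Deviations of same-numbered libraries correlated at 0.023 to 0.24 in CA1 and at -0.0082 to 0.15 in WBC. The sham library most like each TBI library had the same number for TBI 1 and TBI 4 in CA1 and for TBI 1 in WBC. For the other TBI libraries it had another number, so these values do not settle whether equal numbers are linked. In a paired sign-flip test of the 4 CA1 quantities exact p was 0.25 to 0.375, where 4 pairs allow no p under 0.125, so this says nothing about stability. Grin1, Grin2a, Grin2b, Grin2c and Grin3a kept the sign of their CA1 difference throughout, and Grin2d turned to -0.0122 without sham 4, with 0.19 the highest value over left-out libraries. The WBC differences of single subunits have no value at a minimum mean of 1 FPKM; without it they ran from -0.06 (Grin2b) to 0.30 (Grin1), limma adjusted p = 0.476 to 0.96. The count of all CA1 rows passing, 1, became 2 with quantile normalization or without TBI 1 and sham 1, 3 without the trend, and 1 to 2 with a library left out (2 without TBI 1, TBI 3, sham 1 or sham 2). The WBC count, 0, became 2 with rows of every status and 0 to 4 with a library left out (4 without TBI 2, 1 without sham 2). The cause was not tested. Grin2d and Grin3a have no value at a minimum mean of 5 FPKM. Depth is unknown, so no detection limit can be given for the WBC values, all under 1 FPKM.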

Other observations

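The single CA1 row that passed limma, the unnamed locus XLOC_003441, stands 6 rows after the Grin2a row with the higher mean in table order, between Tmem114 and Fam86a. It had 10.6, 9.86, 9.11 and 10.8 FPKM in TBI 1 to 4, and was listed at 0 in sham 1, 2 and 4 and at 0.00348 FPKM in sham 3 (limma adjusted p = 9.11e-08). No relation to Grin2a was tested.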
